A study of Mus musculus with 6 samples.

Results

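Mecom, its PRDM paralog Prdm16 and 8 genes for known corepressor partners of the EVI1 protein were examined probe set by probe set on 6 arrays, 3 labelled EGFP and 3 labelled EVI1. A probe set was taken where the annotation gave it exactly 1 gene symbol and that symbol was one of the 10. This gave 11 of the 34760 probe sets of the value table, for 9 of the 10 genes. Mecom and Hdac1 had 2 probe sets each. Suv39h1, the histone methyltransferase reported to bind EVI1, has no such probe set and was not analysed here.

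The cells were lineage-depleted (Lin-) hematopoietic progenitors of C57BL6 strain from Rosa26rtTA mice, in which a reverse tetracycline transactivator is made in all tissues. Both groups were kept without serum with 4 cytokines, stem cell factor, Flt3 ligand and interleukin 11 at 50 ng/ml each and interleukin 3 at 20 ng/ml, transduced with a lentivirus 24 h after isolation and given doxycycline (1 µg/ml) 24 h later. The EVI1 group received pRRL.PPT.Tet.Evi1.IRES.EGFP.pre, a tetracycline-inducible vector for EVI1 and EGFP, and the EGFP group received pRRL.PPT.Tet.EGFP.pre, which makes the fluorescent protein alone. EGFP-positive cells were sorted, and RNA was taken after 20 h of doxycycline by one text of the series and after 24 h by the other. The labels do not say whether the 3 replicates of a group are separate animals, cultures or transductions, so p-values measure the spread between these arrays, which may be technical.

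EVI1 is a zinc finger transcription factor encoded by Mecom and is needed by hematopoietic stem cells. The locus has an upstream start, which gives the longer MDS1-EVI1 protein with a PR domain, and a downstream start, which gives EVI1. EVI1 recruits the CtBP proteins, and with them histone deacetylases and histone H3 lysine 9 methyltransferases. It has also been found with the SWI/SNF ATPase BRG1 and with the DNA methyltransferases DNMT3A and DNMT3B.

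The promoters at both Mecom starts and at the start of Smarca4, the member with the smallest p below, are shown to set the annotated starts of these genes beside their values. They are the RefSeq sequences (GRCm38.p6) from 250 bases before to 50 bases after each annotated start, 5′ to 3′ along the gene, with every CpG in capitals, the dinucleotide that DNA methyltransferases modify.
Mecom, upstream start, chr3:30509710-30510009, minus strand: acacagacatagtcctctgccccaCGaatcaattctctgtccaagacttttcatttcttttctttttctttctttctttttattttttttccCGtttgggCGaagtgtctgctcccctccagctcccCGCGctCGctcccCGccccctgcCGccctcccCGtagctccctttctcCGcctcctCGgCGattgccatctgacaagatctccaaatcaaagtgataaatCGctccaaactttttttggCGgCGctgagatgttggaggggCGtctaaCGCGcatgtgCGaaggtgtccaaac
Mecom, downstream start, chr3:30013155-30013454, minus strand: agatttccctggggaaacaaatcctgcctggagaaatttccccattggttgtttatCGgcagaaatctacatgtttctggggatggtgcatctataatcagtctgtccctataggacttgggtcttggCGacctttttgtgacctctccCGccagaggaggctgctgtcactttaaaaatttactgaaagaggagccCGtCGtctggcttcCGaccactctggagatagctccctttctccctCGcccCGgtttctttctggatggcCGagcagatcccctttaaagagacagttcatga
Smarca4, chr9:21615919-21616218, plus strand: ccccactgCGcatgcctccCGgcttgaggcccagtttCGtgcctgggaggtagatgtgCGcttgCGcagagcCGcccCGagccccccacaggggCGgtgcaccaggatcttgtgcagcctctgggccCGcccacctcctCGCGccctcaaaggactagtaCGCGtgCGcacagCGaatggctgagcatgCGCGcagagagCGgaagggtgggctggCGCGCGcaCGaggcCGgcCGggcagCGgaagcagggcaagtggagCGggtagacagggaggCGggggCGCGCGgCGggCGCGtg

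The upstream Mecom window holds 19 CpG, the downstream window 9 and the Smarca4 window 33, against a median of 7 over 32851 promoters of the same length. The promoter table held 15 starts for 9 of the 10 genes. Hdac1 was not among them. AGATAA, the core of the sequence bound by the first zinc finger domain of EVI1, was searched on both strands and occurs in 11.2% of all promoters and in none of the 15. GAAGATGAG, bound by the second zinc finger domain, occurs in 0.399% of all promoters and likewise in none of the 15. These letters are absent from these windows only.

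Before the comparison, the cells and arrays were examined. The 95th percentile of 1035 probe sets for olfactory receptors, genes of smell-sensing neurons, served as a mark of low signal, at 6.96 in log2 units. The 7 measured progenitor markers lay above it, 4 of them, Cd34, Flt3, Mpo and Myb, fell in the EVI1 arrays, and the list mean was 10.4 to 10.6 on EGFP and 9.13 to 9.29 on EVI1 arrays. Of T cell markers 3 of 4 and of B cell markers 2 of 4 lay under that mark in both groups, while the B cell marker Cd79b rose from 8.65 to 9.87 (limma adjusted p = 0.0232). Mast cell markers had list means of 9.21 to 9.59 on the EGFP side and 8.07 to 8.18 on the EVI1 side, with 4 of 7 called lower (5 with the replicate number as a block). For neutrophil markers the means were 9.53 to 10.6 and 8.48 to 9.57, with 2 lower and 1 higher of 7, and for monocyte or macrophage markers 9.71 to 10.2 and 8.90 to 9.56, with 2 lower and 1 higher of 7 (4 lower and 2 higher with the block). Among 7 stromal or endothelial markers the endothelial cadherin Cdh5 rose by 2.61, and the other 6 were not called. Cdh5 had a mean of 6.49 in EGFP, under the mark of low signal, and of 9.11 in EVI1. Of the other 6, Pdgfrb (-0.57), Pecam1 (-0.44) and Cxcl12 (-0.10) were below 0 and Pdgfra (0.06), Col1a2 (0.06) and Col1a1 (0.05) above it. Among 4 erythroid markers the anion exchanger Slc4a1 rose by 1.45, and 3 were not called (Epor 0.46, Klf1 0.09 and Ermap -0.17). Of 5 megakaryocyte markers Ppbp rose by 1.37 and Pf4 fell by 1.41, and of 5 eosinophil markers none was called (Epx was called lower with the block). Their part in the member values was not tested. Array medians lay between 7.24 and 7.31. EGFP replicate 2 was the least like its group (mean correlation with its replicates 0.962, other arrays 0.970 to 0.982) and had the smallest array weight (0.437, other arrays 0.901 to 1.71).

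None of the 11 probe sets passed the test between the groups. The test was limma on the deposited log2 intensities of all 34760 probe sets, with a call at a Benjamini-Hochberg adjusted p under 0.05, and 8.50% of probe sets were called (4.12% higher and 4.38% lower in EVI1; 8.30% with the replicate number as a block). At an unadjusted p under 0.05 there was 1 member probe set, that of Smarca4, where the background was 21.4%. The groups did not overlap for 4 of the 11, higher in EVI1 for Ehmt2 and for the brighter Hdac1 probe set and lower for Smarca4 and for the dimmer Mecom probe set. Over all probe sets 26.8% did not overlap, 12.7% higher and 14.1% lower. Differences, always EVI1 minus EGFP in log2 units, were above 0 for 6 and below 0 for 5 member probe sets, with a median of 0.02 beside -0.01 over all probe sets. Smarca4 was called in 5 of the 15 alternative analyses, and no other member was called in any of the 15. In those 5 the background was 18.2% (1 probe set per gene), 17.4% (probe sets of 1 symbol), 14.0% and 21.0% (probe sets under the 25th percentile or the median left out) and 11.5% (array weights), so 1 member of 9 or 11 was not above the background in any of them.

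**Figure D1:**
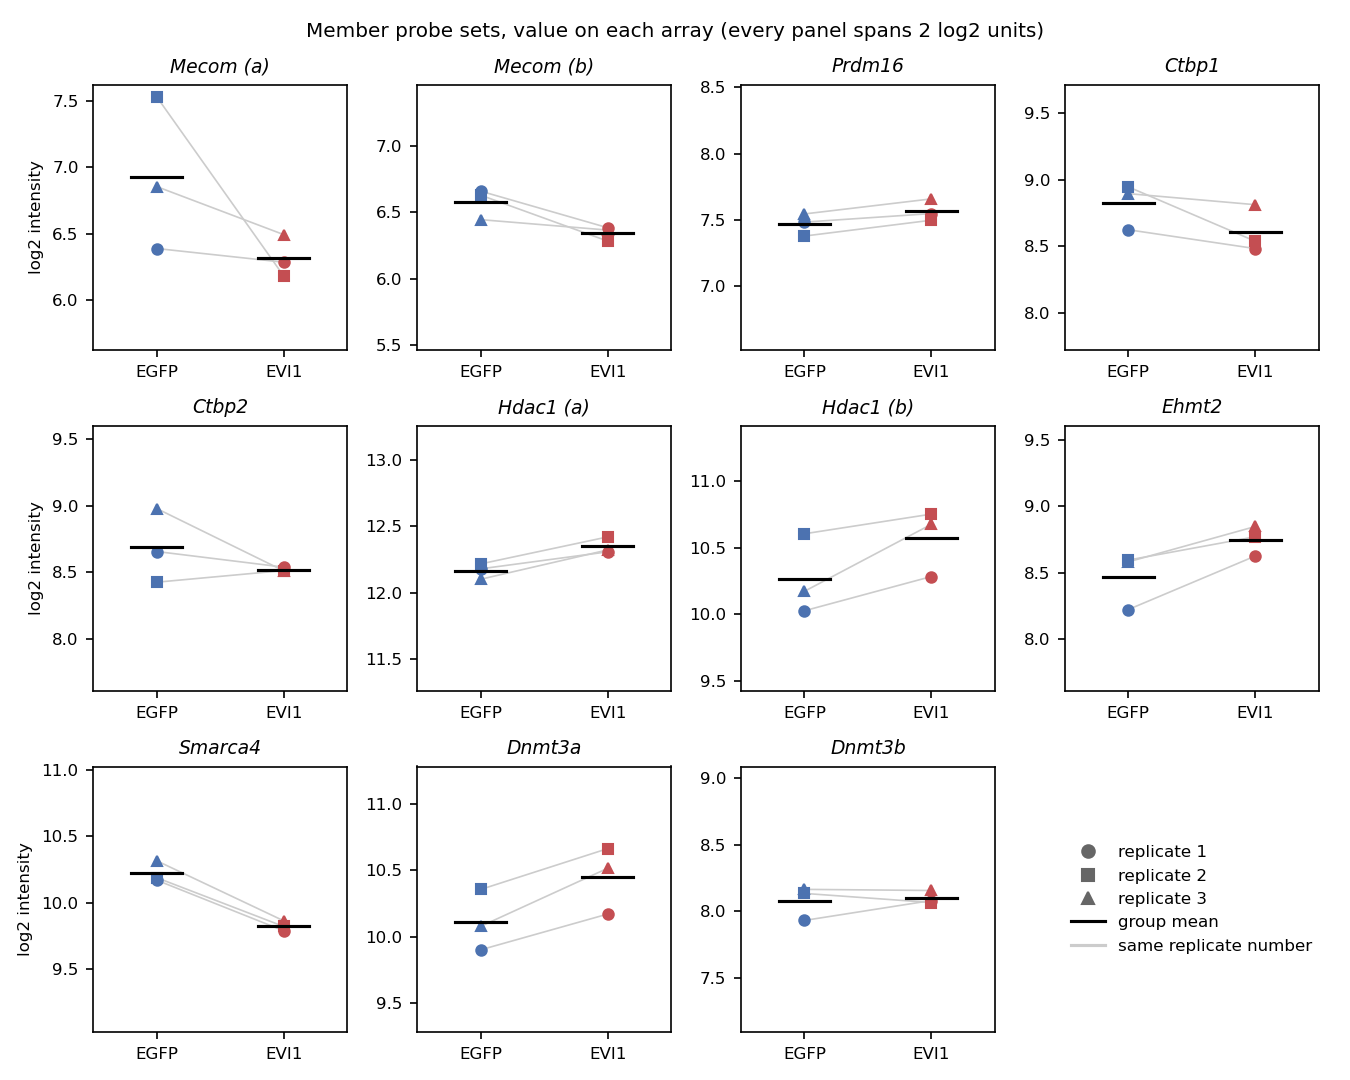
Log2 intensity of each member probe set on the 3 EGFP (blue) and 3 EVI1 (red) arrays, with a marker shape for each replicate number, grey lines joining equal numbers and black bars for group means. Panels span 2 log2 units; (a) is the brighter and (b) the dimmer probe set of Mecom and Hdac1. Smarca4 is lower on all 3 EVI1 arrays, and EGFP replicate 2 stands highest for Mecom (a).

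Mecom, the gene carried by the vector, read lower on average in the arrays labelled EVI1 on both probe sets, and neither passed. Whether its probes read the sequence in the vector is not known here, so these values do not check the labels, and each direction given rests on the array labels. The brighter Mecom probe set read 6.39, 7.53 and 6.86 in EGFP replicates 1, 2 and 3 and 6.29, 6.18 and 6.49 in EVI1 replicates 1, 2 and 3. EGFP replicate 2 was the highest of the 6, and EGFP replicate 1 lay within the EVI1 range. The means were 6.92 ± 0.57 (SD, n = 3) and 6.32 ± 0.16 (SD, n = 3), a difference of -0.60 ± 0.28 (SE; 95% interval -1.29 to 0.08; limma adjusted p = 0.299). The exact permutation test, two-sided, gave p = 0.2, and with 3 arrays against 3 it can give none under 0.1. Without EGFP replicate 2 the difference was -0.30 and without EGFP replicate 1 it was -0.87.

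The dimmer Mecom probe set read 6.66, 6.63 and 6.45 in EGFP and 6.39, 6.28 and 6.37 in EVI1. Here each EVI1 array was below each EGFP array. The means were 6.58 ± 0.12 and 6.35 ± 0.05 (SD, n = 3 each), a difference of -0.23 ± 0.11 (SE; 95% interval -0.49 to 0.03; limma adjusted p = 0.286; exact permutation p = 0.1). The annotation ties the brighter probe set to 3 transcript accessions and the dimmer to 7, with 1 in common. Which transcripts of the locus each probe set reads is not known here. Over the 6 arrays the 2 probe sets had a Pearson r of 0.58, given as a description. For their deviations from the group means r was 0.05, likewise a description, as 6 arrays are too few to say whether they vary together.

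Both Mecom probe sets were faint. Their group means lay under the olfactory 95th percentile, which was 6.95 in EGFP and 6.98 in EVI1. The other 9 member probe sets lay above it in both groups.

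**Figure D2:**
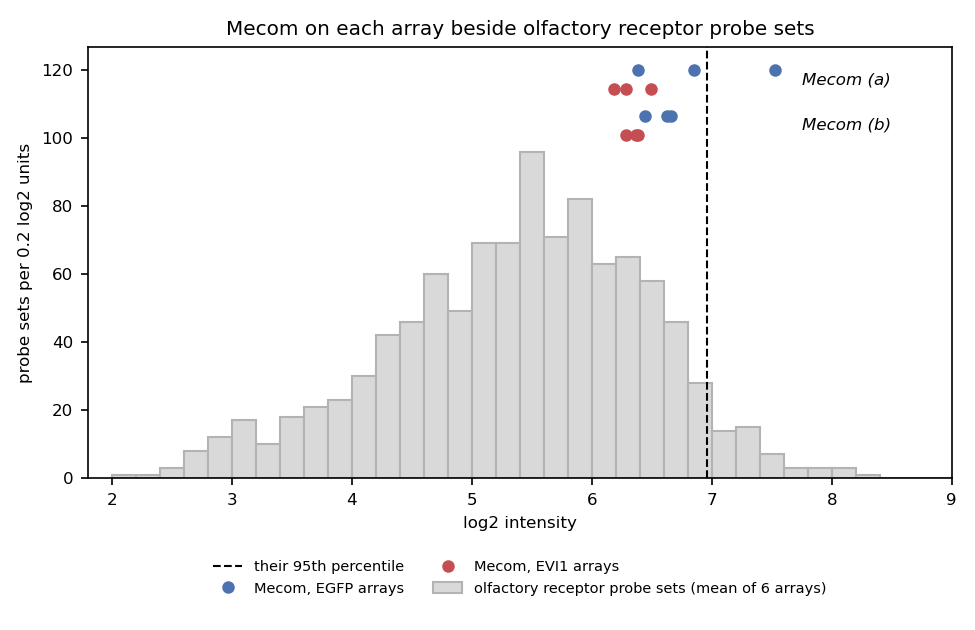
Values of both Mecom probe sets on each array (points; height only separates the rows) over the distribution of 1035 olfactory receptor probe sets, each at its mean over the 6 arrays (bars of 0.2 log2 units). The dashed line is their 95th percentile, 6.96; EGFP replicate 2 of the brighter probe set (a), at 7.53, is the only Mecom value above it.

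The genes most like Mecom over the 6 arrays were searched among 11956 genes brighter than the olfactory 95th percentile. The 5 with the highest Pearson r to the brighter Mecom probe set were Bysl (0.993), Abcg4 (0.988), Scamp5 (0.984), Rcc1l (0.983) and Asb2 (0.982), a description over 6 arrays that share the 2 groups. Bysl, a factor of small ribosomal subunit assembly, read 8.16, 9.33 and 8.54 in EGFP and 8.08, 7.85 and 8.14 in EVI1. It shares with Mecom the high value on EGFP replicate 2, and was not called (limma adjusted p = 0.274). Abcg4 (7.73), Scamp5 (7.51), Rcc1l (8.68) and Asb2 (7.69) were likewise highest on EGFP replicate 2, the array with the smallest weight.

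Prdm16, the closest paralog of Mecom and likewise needed by hematopoietic stem cells, read 7.48, 7.38 and 7.55 in EGFP and 7.55, 7.50 and 7.66 in EVI1. Each EVI1 array was above the EGFP array of its number, but the groups overlapped. The difference was 0.10 ± 0.11 (SE; 95% interval -0.15 to 0.35; limma adjusted p = 0.703).

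The CtBP genes, whose proteins bridge EVI1 to deacetylases and demethylases, had slightly lower RNA signals on average and did not pass. Ctbp1 read 8.62, 8.95 and 8.89 in EGFP and 8.48, 8.54 and 8.81 in EVI1, a difference of -0.21 ± 0.14 (SE; 95% interval -0.56 to 0.14; limma adjusted p = 0.505). Ctbp2 read 8.66, 8.42 and 8.98 against 8.54, 8.51 and 8.51, a difference of -0.17 ± 0.16 (SE; 95% interval -0.54 to 0.21; limma adjusted p = 0.653). Both pairs of groups overlapped. The 3 EVI1 values of Ctbp2 lay within 0.03 of each other and the 3 EGFP values within 0.55. Without EGFP replicate 3 the Ctbp2 difference was -0.02.

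Hdac1, a class I histone deacetylase, was slightly higher on both probe sets without passing. The brighter Hdac1 probe set read 12.18, 12.22 and 12.10 in EGFP and 12.31, 12.42 and 12.32 in EVI1. All 3 EVI1 arrays lay above all 3 EGFP arrays, and the difference was 0.18 ± 0.10 (SE; 95% interval -0.05 to 0.42; limma adjusted p = 0.370). The dimmer Hdac1 probe set read 10.03, 10.61 and 10.17 against 10.28, 10.75 and 10.68, with overlapping groups and a difference of 0.30 ± 0.20 (SE; 95% interval -0.18 to 0.78; limma adjusted p = 0.485). RefSeq also lists a pseudogene, Hdac1-ps, on another chromosome, and which copy each probe set reads is not known here.

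Ehmt2, which encodes the H3 lysine 9 methyltransferase G9a, read 8.22, 8.60 and 8.58 in EGFP and 8.63, 8.77 and 8.85 in EVI1. The groups did not overlap, though EVI1 replicate 1 lay close to EGFP replicate 2. The difference was 0.28 ± 0.14 (SE; 95% interval -0.06 to 0.62; limma adjusted p = 0.334), and it was 0.16 without EGFP replicate 1.

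Smarca4, which encodes BRG1, one of the alternative ATPases of the SWI/SNF remodeler, had the smallest p of the members. It read 10.17, 10.19 and 10.32 in EGFP and 9.79, 9.82 and 9.86 in EVI1. The groups stood clear of each other, with ranges of 0.15 within EGFP and 0.08 within EVI1. The means were 10.22 ± 0.08 and 9.82 ± 0.04 (SD, n = 3 each), a difference of -0.40 ± 0.10 (SE; 95% interval -0.64 to -0.16), which puts the EVI1 level at 0.758 times the EGFP level. Its unadjusted p was 0.00581 and its limma adjusted p 0.0600, so it missed the threshold. Over the 15 alternatives the difference lay between -0.43 and -0.35. Its limma adjusted p was 0.0260 with 1 probe set per gene, 0.0279 with probe sets of 1 symbol, 0.0334 with array weights, and 0.0418 or 0.0376 after leaving out the probe sets dimmer than the 25th percentile or the median. In the other 10 it lay between 0.0606 and 0.184.

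The DNA methyltransferases Dnmt3a and Dnmt3b, which set new methylation, did not pass. Dnmt3a read 9.90, 10.35 and 10.08 in EGFP and 10.17, 10.66 and 10.51 in EVI1. The groups overlapped, but each EVI1 array was above the EGFP array of its number, by 0.27, 0.31 and 0.44. The difference was 0.34 ± 0.18 (SE; 95% interval -0.09 to 0.77; limma adjusted p = 0.365, and 0.128 with the replicate number as a block). Replicate 1 was lowest and replicate 2 highest in both groups, as for the dimmer Hdac1 probe set. The deviations of these 2 probe sets from their group means had a Pearson r of 0.98 over the 6 arrays, a description with the replicates shared. Over all pairs of member probe sets this r ran from -0.84 to 0.98. The pair named is thus the highest, followed by Ehmt2 with Dnmt3b (0.92) and Ctbp1 with Ehmt2 (0.90). Dnmt3b read 7.93, 8.13 and 8.17 against 8.08, 8.07 and 8.16, a difference of 0.02 ± 0.11 (SE; 95% interval -0.24 to 0.29; limma adjusted p = 0.946) whose sign changed without EGFP replicate 1 (-0.05) and without EVI1 replicate 3 (-0.00343).

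**Figure D3:**
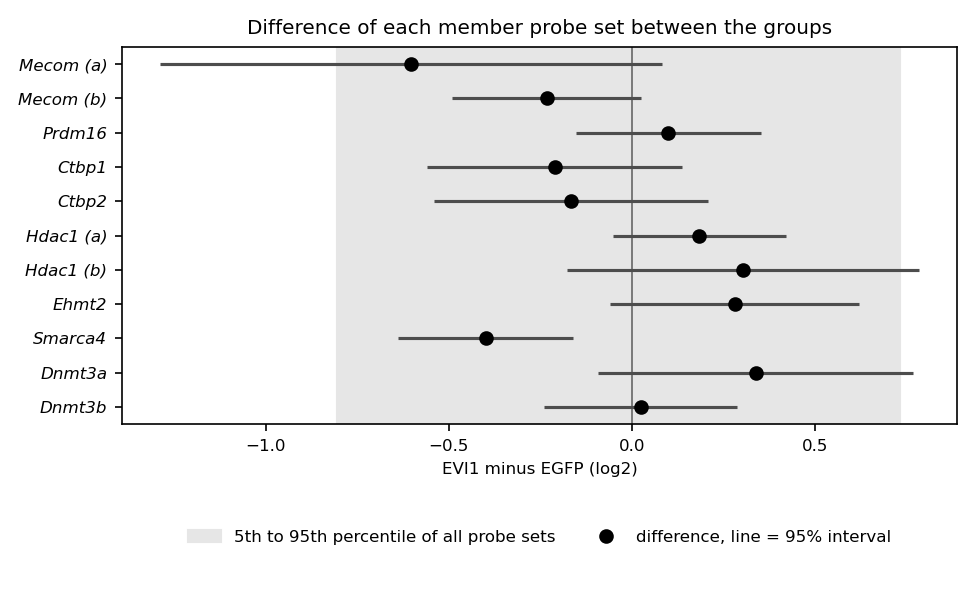
Difference of each member probe set, EVI1 minus EGFP in log2 units (points), with the 95% interval of the limma fit (lines, n = 3 arrays per group). The grey band runs from the 5th to the 95th percentile of all probe sets, -0.81 to 0.73; every member difference lies inside the band, and 10 of the 11 intervals include 0.

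Paralogs were compared within arrays, as the change between the groups of the log2 difference of the pair, for 6 pairs. Exact permutation over 3 against 3 arrays cannot pass 0.05, and the smallest adjusted p over the 6 pairs was 0.15. The largest change was for Smarca4 minus Smarca2, -1.09 (exact two-sided permutation p = 0.1), with no overlap between the groups. Smarca2, the alternative ATPase BRM, read 10.91, 10.59 and 10.75 in EGFP and 11.49, 11.46 and 11.36 in EVI1 and rose by 0.69 ± 0.12 (SE; limma adjusted p = 0.0204), so that the pair differed in opposite directions. Hdac1 minus Hdac2 changed by 0.69 (exact permutation p = 0.1), again without overlap. Hdac2, the second class I deacetylase of the same complexes, read 12.02, 11.96 and 12.02 against 11.44, 11.60 and 11.44 and fell (difference -0.50 ± 0.10 SE; limma adjusted p = 0.0328, and 0.0657 with the block). Neither paralog was called without EGFP replicate 3 or without any one of the EVI1 arrays, nor Hdac2 without EGFP replicate 1.

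Ehmt1 minus Ehmt2 changed by -0.63 (exact permutation p = 0.1) without overlap. Ehmt1, which encodes GLP, the partner of G9a, read 8.62, 8.78 and 8.55 in EGFP and 8.25, 8.31 and 8.33 in EVI1 (difference -0.35 ± 0.11 SE; limma adjusted p = 0.107). Mecom minus Prdm16 changed by -0.70 (exact permutation p = 0.1), and by -0.35 without EGFP replicate 2. Dnmt3a minus Dnmt3b changed by 0.31 (exact permutation p = 0.2). Ctbp1 minus Ctbp2 changed by -0.05 (exact permutation p = 0.9), and the sign turned without EGFP replicate 2 (0.15) or EVI1 replicate 1 (0.03). Suv39h2, the paralog of the member without a probe set, read 9.57, 8.37 and 9.60 against 9.07, 8.88 and 8.86. EGFP replicate 2 was the lowest of its 6 values. The difference was -0.24 ± 0.34 (SE; limma adjusted p = 0.788), and -0.65 with an adjusted p of 0.0320 without that array.

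**Figure D4:**
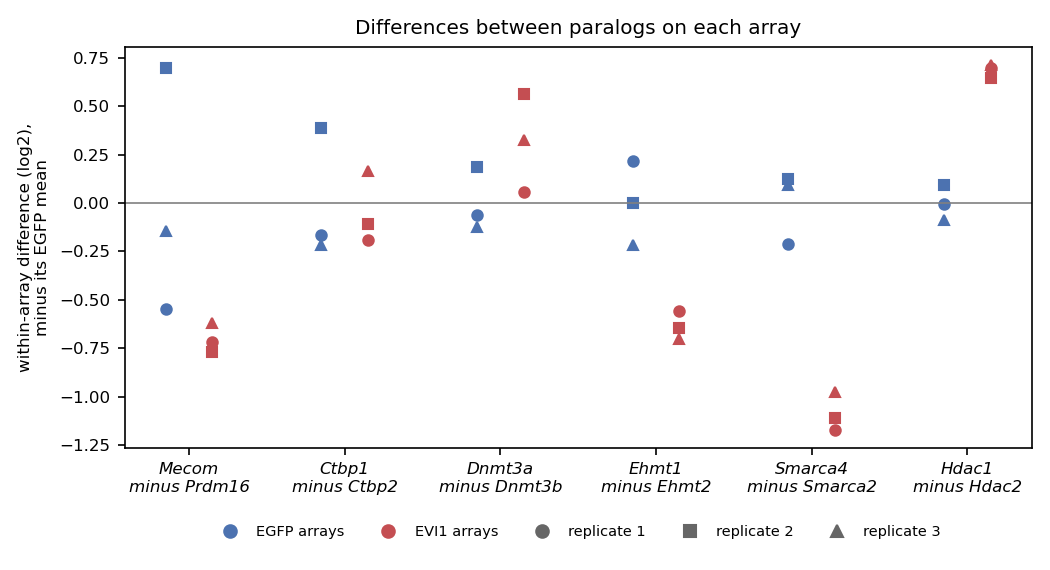
Within-array log2 difference of each paralog pair, shifted so that the EGFP mean is 0, on the EGFP (blue) and EVI1 (red) arrays with a marker shape for each replicate number. For Smarca4 minus Smarca2 all EVI1 arrays lie below and for Hdac1 minus Hdac2 all lie above the EGFP arrays, with mean changes of -1.09 and 0.69.

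The complexes around these members were described by lists of genes, each gene by its brightest probe set. Among 19937 genes so represented 11.5% were called, 5.73% higher and 5.75% lower, and their median difference was 0.01. Of 13 measured PRDM genes Prdm15 was called and fell (-0.58 ± 0.12 SE; limma adjusted p = 0.0342), 12 did not pass, and the list median was -0.02. Prdm1, Prdm4 and Prdm14 differed by 0.38, -0.25 and 0.16. The Prdm15 call was lost without any one of the 6 arrays.

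Of 20 measured genes of the CtBP complex 2 rose, 2 fell and 16 did not pass, with a median of 0.08. The zinc finger repressor genes Zeb2 (0.62 ± 0.13 SE) and Zfp516 (0.47 ± 0.10) rose, and Hdac2 and the lymphoid regulator Ikzf1 (-0.53 ± 0.12) fell. With the replicate block none of these 4 passed, at limma adjusted p from 0.0568 to 0.0796. Of the 4, 1 call was left without EGFP replicate 1 or EGFP replicate 2 and none without any one of the other arrays. Over all 15 alternatives the call of Ikzf1 was lost in 9, that of Zfp516 in 7 and those of Zeb2 and Hdac2 in 6 each. Of 27 genes of the histone deacetylase complexes 2 rose and 3 fell, with a median of -0.04. The NuRD helicases Chd3 (0.61 ± 0.12) and Chd4 (0.53 ± 0.10) rose, and Hdac2 and the scaffolds Sin3a (-0.49 ± 0.10) and Sap130 (-0.54 ± 0.12) fell. With the block none of the 5 passed, at limma adjusted p from 0.0516 to 0.0706, and leaving out EGFP replicate 1 left 1 call, EGFP replicate 2 left 3 and any one of the other 4 arrays left none.

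Of 16 genes of H3 lysine 9 methylation, 2 fell, 14 did not pass and none rose, with a median of -0.13. Those that fell were Cbx3 (-0.65 ± 0.12), a reader of the mark, and Trim28 (-0.71 ± 0.13), a corepressor that brings in its writers. With the block Cbx3 did not pass (limma adjusted p = 0.0581), and neither was called without EGFP replicate 3, EVI1 replicate 1 or EVI1 replicate 3, nor Cbx3 without EGFP replicate 1 or Trim28 without EVI1 replicate 2. The methyltransferase Setdb1 differed by -0.47 and the demethylase Kdm4c by 0.51.

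Of 14 genes of DNA methylation, 3 fell, 11 did not pass and none rose, with a median of 0.00076. Dnmt1, the maintenance methyltransferase, went from 11.43 ± 0.14 to 10.47 ± 0.10 (SD, n = 3 each), a difference of -0.96 ± 0.12 (SE; limma adjusted p = 0.00733). Uhrf1, which guides Dnmt1 to replicating DNA, fell (-1.40 ± 0.29 SE), as did the remodeler Hells (-1.46 ± 0.23 SE). Dnmt1 was called in all 15 alternatives. Uhrf1 was not called without EGFP replicate 3 or any one of the EVI1 arrays, and Hells not without EGFP replicate 1, EVI1 replicate 1 or EVI1 replicate 3. The dioxygenase Tet1 differed by 0.79 ± 0.20 (limma adjusted p = 0.0617).

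Of 25 SWI/SNF genes 1 rose (Smarca2) and 2 fell, with 22 not passing and a median of -0.11. The core subunit Smarcc1 went from 10.60 ± 0.14 to 9.60 ± 0.06 (SD, n = 3 each), a difference of -0.997 ± 0.11 (SE; limma adjusted p = 0.00587). Actl6a, an actin-like subunit of the complex, fell too (-0.88 ± 0.11 SE). Both were called in all 15 alternatives. Bcl7a differed by -0.33.

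Of 20 other genes whose products have been reported to bind EVI1 2 rose, 3 fell and 15 did not pass, with a median of -0.02. The acetyltransferase Kat2b (0.70 ± 0.13) and the myeloid factor Spi1 (0.73 ± 0.16) rose. Runx1, a regulator of definitive hematopoiesis (-0.81 ± 0.13), and the polycomb genes Ezh2 (-0.65 ± 0.10) and Suz12 (-0.73 ± 0.15) fell. With the block 2 of the 5 were called. Of 5 calls, 3 were left without EGFP replicate 1, 1 without EVI1 replicate 3 and none without EGFP replicate 3, EVI1 replicate 1 or EVI1 replicate 2. Of 8 measured genes reported as EVI1 targets 1 fell, Serpinb2 (-1.79 ± 0.17), a serpin protease inhibitor, none rose, and 7 did not pass. Among these Meis1 (-0.66; limma adjusted p = 0.0868, and 0.0465 with the block) and Angpt1 (-0.88) were lower on average and Adgrg1 (0.83) higher. Adgrg1 had a limma adjusted p of 0.124, and 0.0125 without EGFP replicate 2.

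Genes of cell division moved between the same arrays. Of 19 measured genes of DNA replication and mitosis, 2 did not pass and the remaining 17 were called lower, with a median of -1.28. Examples are Mcm3 (-1.72 ± 0.16), Mcm4 (-1.62 ± 0.11) and Mcm7 (-1.61 ± 0.14) of the replicative helicase and cyclin A2 (Ccna2, -1.22 ± 0.11). The mean log2 level of the list was 10.4 to 10.6 on the EGFP arrays and 9.21 to 9.48 on the EVI1 arrays. In such bulk samples fewer cycling cells and less RNA per cell cannot be told apart. The part of this shift in the values of Dnmt1, Uhrf1, Hells, Ezh2 and the members was not tested.

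**Figure D5:**
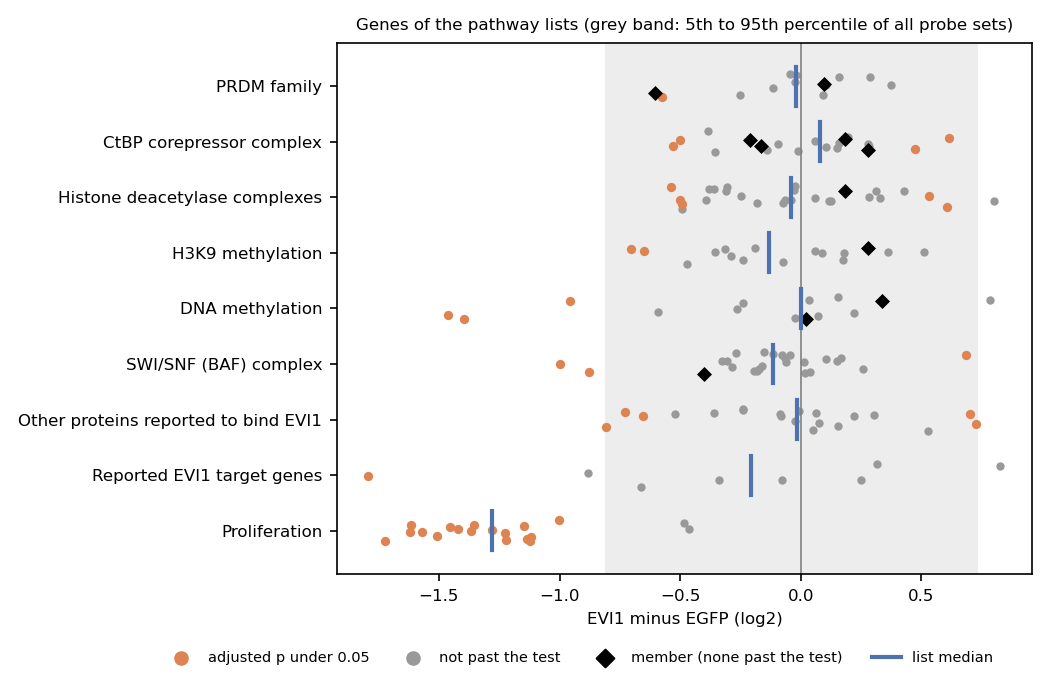
Differences of single genes, EVI1 minus EGFP in log2 units, in each of 9 lists (grey points did not pass, orange passed at adjusted p under 0.05, black diamonds are members, blue bars list medians; vertical scatter is only for display). The members lie within the grey band of the 5th to 95th percentile of all probe sets, -0.81 to 0.73, and the proliferation list is centred at -1.28.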

How the data were processed

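Total RNA was amplified, labelled with biotin and hybridised to single-colour Affymetrix arrays, 1 per sample. The deposited values are log2 intensities per probe set; the authors made them with RMA, per the submitters' processing notes, and no version is given in the sources used here. RMA brings arrays to a common distribution, so a change of total RNA per cell would not appear, and the number of arrays limits the precision. Values were used as deposited. Of 34760 probe sets 21640 carried 1 symbol, 1321 several and 11799 were unnamed here. Groups were taken from the sample titles and compared with limma 3.58.1 in R 4.3.3 (lmFit, eBayes) over all probe sets, with no filter on dim ones; exact permutation tests were added for Mecom and paralog pairs. The code was tested on simulated data.

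Members, lists and tests were chosen with earlier results of these data known. The lists held 166 symbols, of which 154 were measured. Named genes were the members, 4 paralogs, up to 4 other genes per list with the smallest p and the 5 most like Mecom; Spi1, Sap130 and the marker genes were named after their values were seen. The deviations of same-numbered arrays from their group means correlated at r = 0.370, 0.192 and 0.119 across probe sets for replicates 1, 2 and 3. For arrays of different numbers r ran from -0.256 to 0.0821, the latter for EGFP replicate 2 with EVI1 replicate 3 and close to the value of replicate 3. Deviations within a group cancel, so positive r for equal numbers tends to bring negative r for different numbers. This contrast is thus partly built in. The numbers were taken to pair the arrays, and a fit with the replicate block was an alternative. The others were 1 probe set per gene, probe sets of 1 symbol, filters at the 25th percentile and the median, further quantile normalisation, median centring, trend and robust variance, array weights, the mean of a gene's probe sets for paralogs, and leaving out each array. Sequences are RefSeq promoters (GRCm38.p6); genome coordinates of probe sets were not used.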

Additional observations from a re-analysis of the deposited data

How the results depend on the processing

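The number of member probe sets called was 0 and became 1 (Smarca4) with 1 probe set per gene, probe sets of 1 symbol, either filter on dim probe sets, or array weights, where 18.2%, 17.4%, 14.0% (25th percentile), 21.0% (median) and 11.5% of all features were called, against 8.50%. With 1 probe set per gene and with the filter at the median 9 of the 11 were tested. It stayed at 0 under the other 10 alternatives, among them the replicate block and every left-out array. With the replicate block 2886 of all probe sets and 29 genes of the 9 lists were called, against 2954 and 40, and Smarca4 had a limma adjusted p of 0.0827; the block changed no call among the members, and among the list genes it ended the calls given above and added Meis1, and it added calls among mast cell, monocyte or macrophage and eosinophil markers. With 1 array left out, calls over all probe sets ranged from 994 to 3160 and over the 9 lists from 16 to 35. The difference of Dnmt3b ranged from -0.0486 to 0.0683 (-0.00343 without EVI1 replicate 3) and the change of Ctbp1 minus Ctbp2 from -0.15 to 0.15 (0.03 without EVI1 replicate 1). The other member probe sets and paralog pairs kept their direction under each alternative run for them. The cause of these shifts was not tested. The intensities of both Mecom probe sets lie in the range of olfactory receptor probe sets, which limits what their differences show.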
